A study of Schizosaccharomyces pombe with 6 samples.

Results

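A run of 7 features of the count table lies along the mat1 mating-type locus on chromosome II of fission yeast. On one side of mat1, 3 transcripts were between 2.12-fold and 10.65-fold less abundant in cpn1∆ cells than in wild-type cells. The last feature on that side, mag2, was not measured. In chromosome order the 7 features are rga7 (SPBC23G7.08c), mat1-Mi (SPBC23G7.17c), mat1-Mc (SPBC23G7.09), SPNCRNA.388, SPBC23G7.10c, SPNCRNA.1487 and mag2 (SPBC23G7.11). They are 7 of the 7268 features of the table, named one by one and chosen by their measured counts in these same libraries. Their differences between genotypes, and the counts of those past a threshold, are therefore given only as a description, without p-values. RNA-seq of polyadenylated RNA was performed to look for effects of Cpn1, the fission yeast Caprin protein, on the transcriptome. The 3 cpn1∆ libraries come from strain EHB7577, in which a HygMX6 cassette replaces cpn1, and the 3 wild-type libraries from strain EHB7. Both strains are labelled h+ and share the alleles ade6-210, leu1-32 and ura4-D18 and the pericentromeric reporter otr1R:ade6+, and all cultures were in log phase at 32 °C in rich medium (YES). Each genotype is 1 strain, so that any other difference between EHB7577 and EHB7, also at mat1 itself, and the loss of cpn1 cannot be told apart. In RNA from whole cultures, a transcript made by fewer cells and less of it in each cell cannot be told apart either.

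The mat1 locus is the expressed mating-type cassette of fission yeast. It carries either P or M information, which is copied from the silent donor cassettes mat2 and mat3, and those donors are kept silent by heterochromatin. Cells with P information at mat1 mate as h+ and cells with M information as h-. The reference assembly comes from an h- strain, which is why the features annotated at mat1 are the M genes mat1-Mi and mat1-Mc, both annotated as M-specific transcription factors. The mating type also decides which pheromone and receptor genes are switched on during nitrogen starvation.

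Counts assigned to genes ranged between 28581994 and 32575216 in cpn1∆ libraries and between 26461217 and 32916622 in wild-type libraries. The deleted gene cpn1 had 169 to 194 counts in cpn1∆ libraries and 7543 to 9034 in wild-type libraries. Of the 7 genes beside mat1, 5 had enough counts to be tested across all features, and mat1-Mc and mag2 did not. Of these 5, 3 were called lower in cpn1∆ cells at a false discovery rate (FDR) under 0.05 and a log2 fold change (log2FC) below -1, the thresholds of the study, and 0.310% of the 5812 features tested were called lower by the same rule. Without the fold threshold 4 of the 5 were lower, against 10.2% of all features. In all 5 every cpn1∆ library was below every wild-type library, which held for 18.2% of all features. For mat1-Mi this rests on a fractional count of 29.33 in wild-type replicate 3, whose scaled level nearly equals that of cpn1∆ replicate 3. The choice of the genes used this contrast, so nothing is read from how many passed. SPNCRNA.388 passed the filter on low counts through its wild-type libraries.

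The first of the 7 genes, rga7, encodes a protein with an F-BAR domain that acts in cytokinesis. It was at 103, 103 and 106 CPM (counts scaled to a common library total by the trimmed mean of M-values, TMM) in cpn1∆ libraries and at 113, 110 and 114 CPM in wild-type libraries. The libraries did not overlap, but the difference was small, a log2FC of -0.11 (standard error 0.03).

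Within the cassette, mat1-Mi had 22, 24 and 30 counts in cpn1∆ libraries and 26, 34 and 29.33 counts in wild-type libraries. After scaling this was 0.817 ± 0.0885 CPM in cpn1∆ and 0.995 ± 0.0833 CPM in wild-type cells (SD, n = 3), with cpn1∆ replicate 3 and wild-type replicate 3 nearly equal. The log2FC of mat1-Mi was -0.27 with a standard error of 0.24, close to the size of the difference itself. The HMG-box gene mat1-Mc was practically not detected, with 0 counts in each cpn1∆ library and 0.33 counts in each wild-type library. A count of 0 allows up to 3 counts, or 0.104, 0.0958 and 0.0919 CPM in cpn1∆ replicates 1, 2 and 3, for counting error only. No difference in mat1-Mc was thus detectable at this depth.

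SPNCRNA.388, the first feature on the mag2 side of mat1, is a non-coding RNA. It had 4, 11 and 6 counts in cpn1∆ libraries, against 56, 76 and 88 in wild-type libraries. Its level was 0.225 ± 0.112 CPM in cpn1∆ and 2.43 ± 0.323 CPM in wild-type cells (SD, n = 3). The log2FC was -3.41 with a standard error of 0.31. The lowest wild-type library, at 2.11 CPM, was well above the highest cpn1∆ library, at 0.351 CPM. Only the deleted gene had a lower log2FC, which puts SPNCRNA.388 at rank 2 of 5812. In cpn1∆ cells the transcript was close to the limit of detection, and the size of the fall rests on few counts.

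SPBC23G7.10c, the next gene, is annotated as an NADH-dependent flavin oxidoreductase. It had 34, 34 and 44 counts in cpn1∆ libraries, against 169, 207 and 267 in wild-type libraries. In CPM, cpn1∆ libraries were at 1.18, 1.08 and 1.35 and wild-type libraries at 6.38, 6.60 and 8.37. The groups were far apart, and the spread among wild-type libraries came mostly from replicate 3. The log2FC was -2.56 (standard error 0.18), which is 5.91-fold lower in cpn1∆ cells and rank 4 of all features. The only other gene with the same annotation, coq12, had 50.3, 53.5 and 49.7 CPM in cpn1∆ libraries and 53.0, 50.7 and 57.4 CPM in wild-type libraries, which overlap (log2FC -0.07).

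SPNCRNA.1487 is a non-coding RNA on the strand opposite to mag2. It had 18, 24 and 30 counts in cpn1∆ libraries and 34, 56 and 58 in wild-type libraries. In CPM, cpn1∆ libraries were at 0.626, 0.766 and 0.919 and wild-type libraries at 1.28, 1.79 and 1.82. The groups did not overlap, and the highest cpn1∆ library and the lowest wild-type library were the closest pair. The log2FC was -1.08 (standard error 0.25), rank 20 of 5812. Without cpn1∆ replicate 1 it was -0.96, short of the fold threshold.

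The last gene, mag2, which encodes a DNA-3-methyladenine glycosylase of base excision repair, had 0 counts in all 6 libraries. In the ASM294v3 annotation, SPNCRNA.1487 covers 100% of mag2, and mag2 covers 67.7% of SPNCRNA.1487. Whether the counting used strand is not given in the sources used here, so the expression of mag2 was not measured and reads of the pair cannot be told apart. The values of SPNCRNA.1487 are uncertain for the same reason. The small nucleolar RNA gene snR92, the one other feature of the table inside the interval, lies wholly within SPNCRNA.1487 and also had 0 counts in all libraries.

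**Figure D1:**
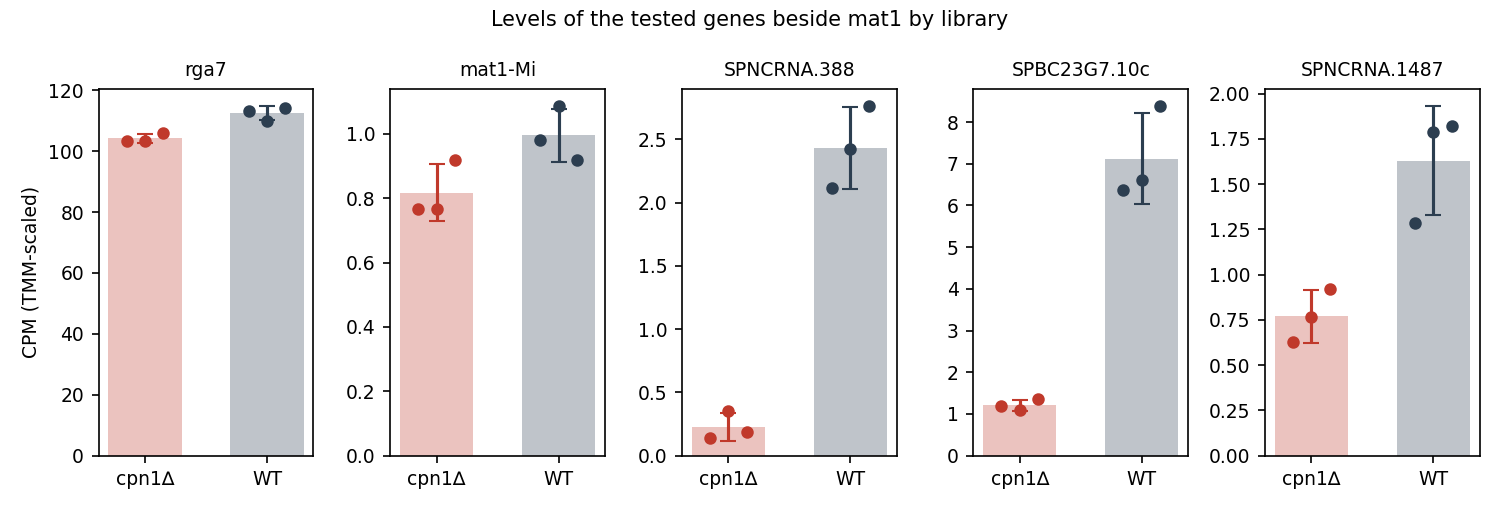
Levels of the 5 tested genes beside mat1 in TMM-scaled CPM, with a linear axis from 0 for each gene. Points are libraries, bars are means and error bars are 1 SD (n = 3 cpn1∆, left, and n = 3 wild-type, WT, right). SPNCRNA.388, SPBC23G7.10c and SPNCRNA.1487 are well below their wild-type levels in cpn1∆ cells, whereas rga7 averages 104 CPM in cpn1∆ and 112 CPM in wild-type cells.

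The 3 transcripts with a log2FC below -1 were SPNCRNA.388, SPBC23G7.10c and SPNCRNA.1487. The means of the 3 in wild-type cells were 2.43, 7.12 and 1.63 CPM, in the same order and without scaling for length. They carried whole counts in all 6 libraries, whereas 760 features of the table had a fractional count in at least 1 library. All 3 were highest in replicate 3 among the wild-type libraries. Among the cpn1∆ libraries this held for SPBC23G7.10c and SPNCRNA.1487, and SPNCRNA.388 was highest in replicate 2. They are neighbours on one side of the cassette in the order of the reference. Their log2FC was lowest next to mat1 and rose with each gene away from it, at -3.41, -2.56 and -1.08. In the cassette itself mat1-Mi was at -0.27, and on its other side rga7 was at -0.11. The difference among the values of the 3 transcripts was not tested.

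**Figure D2:**
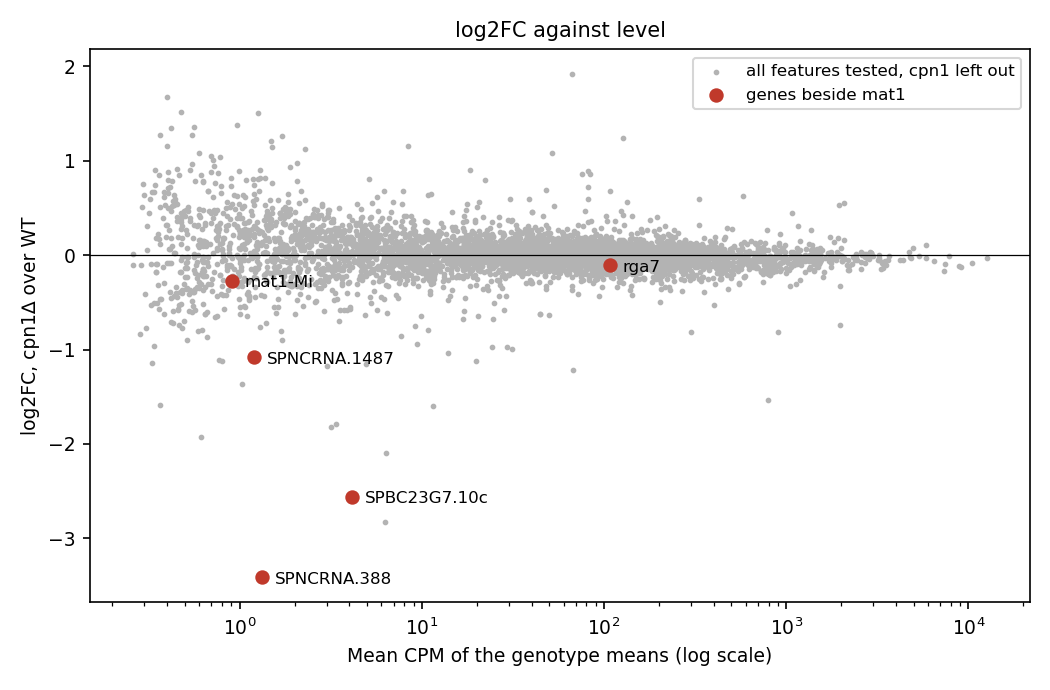
log2FC of cpn1∆ over wild-type cells against mean CPM (log scale) for all 5812 features tested except cpn1, in grey, with the 5 tested genes beside mat1 in red. SPNCRNA.388 at -3.41 lies below all grey points, SPBC23G7.10c at -2.56 below all but 1 of them, SPNCRNA.1487 at -1.08 lies at the lower edge, and mat1-Mi and rga7 lie within the grey points.

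To see where the differences end, the 10 features on each side of the interval were examined in the order of the ASM294v3 annotation. Among the 13 with enough counts for a test, 0 met both thresholds by edgeR, DESeq2 or limma voom, nor did any combine an unadjusted p under 0.05 with a 2-fold change. Past the FDR threshold 2 were lower and 1 was higher, against 18.6% of all features changed either way. Their median log2FC was 0.0035, and that of all features 0.0062. On the rga7 side, cms1, nvj2 and sui1 had a log2FC of -0.06, 0.0035 and -0.01 and did not pass the test. The vacuolar copper transporter gene ctr6, farther out, was at 97.8, 93.0 and 99.3 CPM in cpn1∆ libraries and at 91.4, 85.1 and 90.1 CPM in wild-type libraries. It rose slightly, with a log2FC of 0.12 (FDR = 0.0346, by Benjamini-Hochberg adjustment of the p-values of edgeR). The call of ctr6 was lost with DESeq2 (FDR = 0.0591) and, with edgeR, without wild-type replicate 2 (FDR = 0.152) or cpn1∆ replicate 1 or 3 (FDR = 0.102 and 0.12).

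On the mag2 side the profile came back to near 0 at the first gene past the interval. This gene, rpt6, encodes an ATPase of the proteasome's regulatory particle. It was at 135, 132 and 141 CPM in cpn1∆ libraries and at 146, 150 and 154 CPM in wild-type libraries, a log2FC of -0.14 (standard error 0.03, edgeR FDR = 0.00819). The groups did not overlap, but the fall was small beside that of SPNCRNA.1487 next to it. The ribosomal protein P2 gene rpp202 also fell, to 691, 649 and 681 CPM in cpn1∆ libraries, against 781, 776 and 896 CPM in wild-type libraries (log2FC -0.28, edgeR FDR = 0.00112). Between these genes, the urea transporter gene SPBC23G7.13c had 20, 16 and 10 counts in cpn1∆ libraries and 11, 9 and 7 in wild-type libraries. These overlap in their ranges, and its log2FC of 0.71 did not pass the test (edgeR FDR = 0.246). The non-coding RNA SPNCRNA.1488, with 0 counts, covers 89.9% of it on the opposite strand, so its reads are uncertain in the same way. SPBC23G7.14 did not pass either, with a log2FC of 0.06. In a window of 100 kb on both sides with the genes beside mat1 left out, 101 features could be tested, and of these 10 fell and 6 rose past the FDR threshold, no larger a share than the 18.6% of all features. With edgeR, DESeq2 or limma voom 0 passed both thresholds, also with unadjusted p-values. The lowest log2FC in this window was -0.40.

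**Figure D3:**
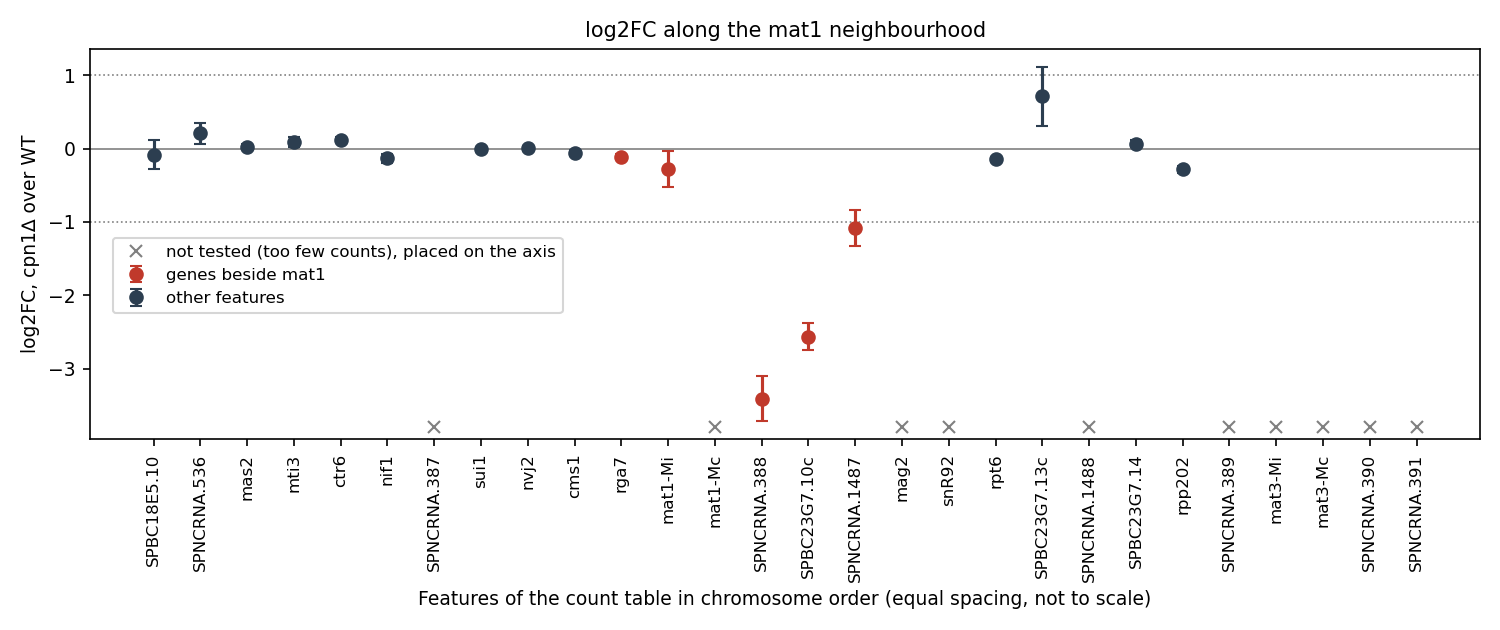
log2FC of cpn1∆ over wild-type cells, with standard errors, for the genes beside mat1 (red) and the 10 features of the count table on each side (dark), in chromosome order at equal spacing. Crosses on the axis mark features with too few counts to be tested, and dotted lines mark a log2FC of 1 and -1. The low values are those of SPNCRNA.388, SPBC23G7.10c and SPNCRNA.1487, and rpt6 next to them is at -0.14.

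Both strains are labelled h+, and the counts of the cassette genes were set beside that label. In ASM294v3, mat1-Mc and mat3-Mc are identical over all 546 bases and mat1-Mi and mat3-Mi over all 129. Reads wholly within the identical bases cannot be assigned to one copy. By the read length in the paper, untrimmed reads were longer than mat1-Mi, so those over it reach past its ends. Whether the bases past its ends differ between the copies was not examined. The silent copy mat3-Mc had the same counts as mat1-Mc, 0 in each cpn1∆ library and 0.33 in each wild-type library. SPMTR.04, an identifier that the reference table does not annotate, had them as well. Equal values of 0.33 are what 1 read shared by 3 features would give. How reads with several matches were counted is not given in the sources used here, so these counts do not show which cassette mat1 carried. The silent copy mat3-Mi had 0 counts in all libraries but wild-type replicate 3, with 0.33. The counts of mat1-Mi, 22 to 34 per library, were whole in all libraries but wild-type replicate 3. Outside that library they were thus not shared with mat3-Mi.

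Among the other SPMTR identifiers, named here after their values were seen, SPMTR.01 had 129.25, 99 and 125.25 counts in cpn1∆ libraries and 160, 206 and 165 in wild-type libraries. In CPM it was at 4.50, 3.16 and 3.84 in cpn1∆ libraries and at 6.04, 6.57 and 5.17 in wild-type libraries. The groups did not overlap, and it fell by 0.64 on the log2 scale (log2FC -0.64, standard error 0.15, edgeR FDR = 0.0102). Without cpn1∆ replicate 2, its lowest library, the call was lost (edgeR FDR = 0.0531). SPMTR.02 had 11 to 16 counts in cpn1∆ libraries and 10 to 17 in wild-type libraries and did not pass, and SPMTR.03 had at most 1 count in any library. No position is given to these identifiers here.

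Genes that P and M cells use differently were examined next. Both strains carry the same label, so a log2FC near 0 between them cannot check it. The cultures were in rich medium and not in nitrogen starvation, so the levels were not taken to check it either. All 5 P-cell genes of the list could be tested. By edgeR 1 was lower and 0 were higher, as with DESeq2, limma voom and an unadjusted p under 0.05, and the median log2FC of the 5 was -0.04. A single call among 5 genes is about the 18.6% of all features that changed. The one that fell was the M-factor receptor gene map3, which averaged 11.8 ± 0.849 CPM in cpn1∆ and 14.3 ± 1.13 CPM in wild-type cells (SD, n = 3; log2FC -0.28, edgeR FDR = 0.0453). This call was lost without wild-type replicate 1 or cpn1∆ replicate 2 (edgeR FDR = 0.163 for both), without wild-type replicate 2 or cpn1∆ replicate 1 (edgeR FDR = 0.0584 and 0.0794) and with scaling by total counts only (edgeR FDR = 0.0759). The transcription factor gene map1 and map4 had a log2FC of -0.12 and 0.06 and did not pass. The P-factor precursor gene map2 was at 50.4 ± 1.29 CPM in cpn1∆ and 51.7 ± 1.36 CPM in wild-type cells (SD, n = 3), and did not pass either.

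Of 8 M-cell genes, 7 could be tested, and 0 were called by edgeR, DESeq2 or limma voom, as was also the case at an unadjusted p under 0.05 (0 genes with each tool). Their median log2FC was 0.03. The M-factor precursor genes mfm2 and mfm1 had a log2FC of 0.12 and 0.04, and the M-factor transporter gene mam1 of 0.08. The level of mam1 was 45.2 ± 2.17 CPM in cpn1∆ and 42.9 ± 0.561 CPM in wild-type cells (SD, n = 3). Reads were thus assigned to this M-cell gene in both h+ strains, on a strand that is not known. The precursor genes were far lower, with mfm1 at 1.7 CPM in both genotypes. For mfm2 the mean was 2.1 CPM in cpn1∆ and 2.0 CPM in wild-type cells. The M-factor precursor gene mfm3 had 0 counts in all libraries.

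The switching and imprinting list holds genes that copy donor information into mat1 or place the imprint there. Of 16 genes, 13 could be tested, and edgeR called 3 lower and 1 higher, against 18.6% of all features changed either way. The median log2FC was -0.04, against 0.0062 over all features. The fork protection gene swi1, needed for the imprint, fell to 22.4, 24.1 and 23.6 CPM in cpn1∆ libraries, against 28.3, 27.6 and 28.3 CPM in wild-type libraries (log2FC -0.26, standard error 0.06, edgeR FDR = 0.00519). The groups were apart by more than the spread within either. The nuclease gene rad16 fell by 0.22 on the log2 scale (log2FC -0.22, edgeR FDR = 0.000261), and the demethylase family gene lsd2 had a log2FC of -0.16. The gene of the CENP-B homologue abp1 rose, to 128 ± 3.28 CPM in cpn1∆ against 115 ± 3.43 CPM in wild-type cells (SD, n = 3; log2FC 0.16, edgeR FDR = 0.00378). All 4 calls held under each of the 15 alternatives. The genes swi3, swi5 and sap1 had 0 counts in all libraries, as did 1104 features of the table. Since sap1 is essential for growth, a 0 is not taken as absence of the transcript.

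The base excision repair genes, the pathway of mag2, were examined in the same way. Of 12 base excision repair genes, 11 could be tested, and edgeR called 2 lower and 0 higher, the same as at an unadjusted p under 0.05, with a median log2FC of -0.01. This is close to the 18.6% of all features that changed either way. The 2 were uve1 (log2FC -0.14, edgeR FDR = 0.017), an endonuclease gene, and the DNA ligase gene cdc17 (log2FC -0.12, edgeR FDR = 0.0486), whose call was lost under 8 of the 15 alternatives, among them without wild-type replicate 1 or 3 and without cpn1∆ replicate 1 or 2 (edgeR FDR = 0.087 to 0.161). The call of uve1 was lost without wild-type replicate 2 or cpn1∆ replicate 3 (edgeR FDR = 0.0568 and 0.0579) and with total counts only (edgeR FDR = 0.0634). The adenine glycosylase gene myh1 and the flap nuclease gene rad2 had a log2FC of 0.18 and 0.16 and did not pass.

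**Figure D4:**
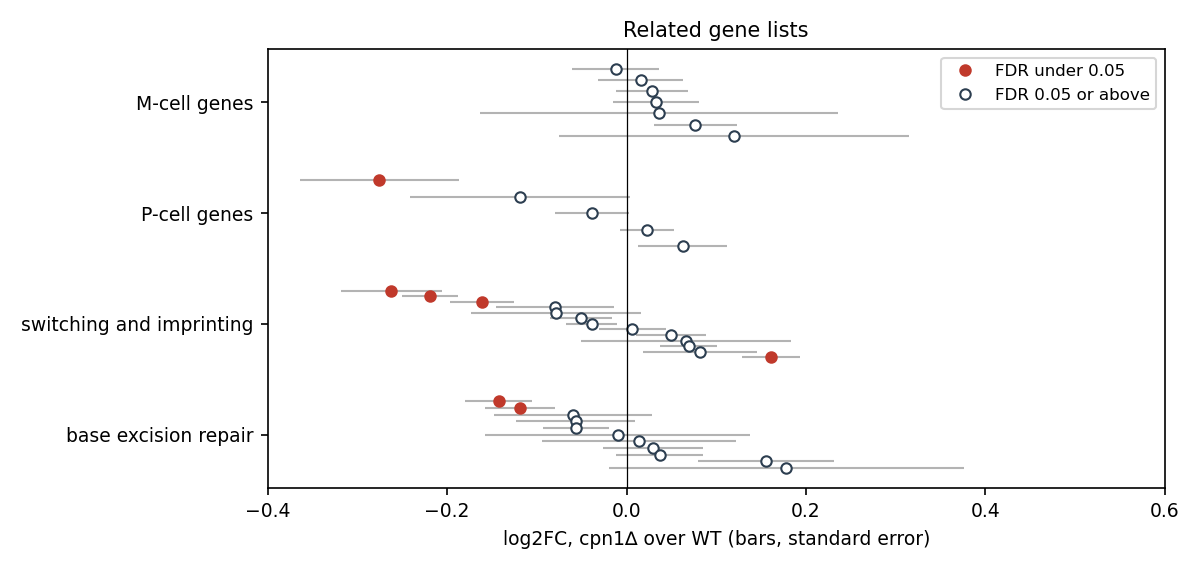
log2FC of cpn1∆ over wild-type cells for the tested genes of 4 lists, with standard errors as bars. Filled points have an FDR under 0.05 and open points do not. The values of these 4 lists lie between -0.28 and 0.18, and no gene of these lists reaches a log2FC of 1 or -1.

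Across the 6 libraries, the level of SPBC23G7.10c followed that of SPNCRNA.388 with a Pearson r of 0.97, that of rga7 with 0.96 and that of SPNCRNA.1487 with 0.94 (log2 CPM with a prior count of 2). The genes most like it among all features with a mean of at least 1 CPM were hem12, leu2, cts1, sup35 and SPNCRNA.787, with r between 0.996 and 0.997. These r values describe the separation of the genotypes and carry no test, since all points share the same 6 libraries. The 5 genes fell far less than SPBC23G7.10c. The heme synthesis gene hem12 was at 221, 219 and 222 CPM in cpn1∆ libraries and at 244, 244 and 245 CPM in wild-type libraries, a log2FC of -0.15. The translation release factor gene sup35 had a log2FC of -0.11. The leucine synthesis gene leu2 had the lowest log2FC of the 5, at -0.30.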

How the data were processed

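Wild-type and cpn1∆ cells were sequenced as 3 biological replicates each. Per the submitters' processing notes, the authors used Cutadapt 4.8, STAR 2.7.10b, featureCounts and the ASM294v2 build. The deposited values are expected counts, not normalized, with fractions at 760 features, and they were rounded before testing. The row named other (0.608% to 0.647% of each library) was left out. Names, order and overlaps come from the RefSeq annotation of ASM294v3, which matched 6862 of 7268 identifiers. It is not the build of the counting, so no coordinates or sequences are printed.

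Counts were scaled with TMM, filtered with filterByExpr (minimum count 10) and tested with edgeR 4.0.16 in R 4.3.3 (glmQLFit with legacy set to FALSE, glmQLFTest), with Benjamini-Hochberg adjustment over 5812 features. The standard error of a log2FC was taken as its size over the root of its F statistic. The fit was tested on simulated counts. Replicates of one genotype differed by more than sampling noise (chi-square per gene 4.68 to 11). No adjusted p is printed for the genes beside mat1.

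The genes beside mat1 and all lists were chosen with earlier results of these data known. One further list is not reported here, and its genes remain in the counts of listed genes called. Genes named are those beside mat1, the 3 nearest tested features on each side, called features among 10 on each side, all cassette features, up to 3 genes per list whose log2FC was farthest from 0 (coq12 is the other gene of a flavin oxidoreductase list), and the 5 features most correlated with SPBC23G7.10c. snR92, SPNCRNA.1488, map2, lsd2, cdc17, mfm3, swi3, swi5, sap1 and the SPMTR identifiers were named after their values were seen. Alternatives were RLE and total-count scaling, 2 other filters, edgeR's legacy test, DESeq2 1.42.0, limma voom (limma 3.58.1), a replicate block, each library left out, unrounded counts, other windows and, added after seeing the data, the SPMTR identifiers.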

Additional observations from a re-analysis of the deposited data

How the results depend on the processing

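The 3 genes beside mat1 called lower by over 2-fold were 3 under each alternative except without cpn1∆ replicate 1, where there were 2 (range 2 to 3 with 1 library left out). Over all alternatives the log2FC ranged between -3.88 and -3.19 for SPNCRNA.388, between -2.66 and -2.43 for SPBC23G7.10c and between -1.24 and -0.96 for SPNCRNA.1487. For rga7 it ranged between -0.13 and -0.08, and for mat1-Mi between -0.37 and -0.20. The count of genes beside mat1 past an FDR of 0.05, 4 in the report, was 3 with total counts only and when cpn1∆ replicate 1 or 2, or replicate 1 or 3 of the wild-type strain, was left out, where rga7 dropped out. These genes were chosen from this contrast, so the counts only describe it.

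With the replicate number as a block, 1226 features passed an FDR of 0.05, against 1081 without it, and the number of genes beside mat1 called was 3 in both. Deviations of libraries with the same number correlated at -0.003, 0.102 and 0.075, so the numbers were not taken to pair the libraries, and not every library correlated best with its own number.

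Listed genes called came to 9, to 5 with total counts only, and to 5 to 9 with 1 library left out, with 5 without wild-type replicate 2 or cpn1∆ replicate 2. Flanking features called came to 3, to 2 to 3 with 1 library left out, to 8 within 50 kb and to 16 within 100 kb, windows that hold more features. With the SPMTR identifiers, added after seeing the data, 10 listed genes were called. The calls of SPNCRNA.388 and SPNCRNA.1487 rest on fewer than 100 counts per library, which limits their precision.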
